A study of Rattus norvegicus with 6 samples.

Results

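The genes described here are 10 markers of the Trem2 pathway and of activated microglia: Trem2, Tyrobp, Cst7, Lpl, Itgax, Clec7a, Spp1, Gpnmb, Axl and Cd68. They were chosen by symbol, and all 10 were found among the 22601 genes of the count table. The tissue was the ventral hippocampus of male rats of the outbred Sprague Dawley strain, aged 4 months (adult, n = 3) or 22 months (aged, n = 3), with no treatment or transgene named in the labels. Before the tissue was taken, rats of both ages had gone through the Morris water maze, which tests spatial memory. The comparison asked whether the expression of these genes differed between aged and adult rats.

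Trem2 is a lipid-sensing receptor on the surface of microglia, the resident macrophages of the brain. It has almost no signalling tail of its own and signals through the adaptor Tyrobp (DAP12), whose ITAM motif recruits the kinase Syk. In mouse models of amyloid and demyelination, microglia that depend on Trem2 switch on a set of genes for phagocytosis, lipid uptake and lysosomal digestion, often called the disease-associated microglia (DAM) programme. The other 8 genes are widely used markers of that state. Several of them are also made by other brain cells, Lpl by neurons and oligodendrocyte precursors and Axl by astrocytes and endothelium among them.

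The hippocampal transcriptome was sequenced to between 12476758 and 15689921 counts per library, and 14588 genes passed the filter on low counts. Markers of hippocampal neurons were present, with 9 of 10 passing that filter. All 20 microglia markers passed it, summing to between 625.1 and 1079 CPM (a gene's counts relative to the library size, scaled between libraries by TMM). Markers of border macrophages summed to between 20.4 and 29.8 CPM, and those of blood leukocytes to between 3.69 and 12.3 CPM. Of the 12.3 CPM, in adult replicate 3, Cd3e alone made up 8.4 CPM (126 counts, against 0 to 3 elsewhere). Some libraries stood apart in the levels of choroid plexus and liver genes, and the source of that RNA was not tested. The 10 choroid plexus markers summed to 2180 CPM in adult replicate 1 and to between 11.2 and 76.1 CPM elsewhere. Summed over 14 liver genes, CPM of the library total came to 37.8 in adult replicate 1 and 34.8 in aged replicate 1, against 254 to 630 CPM in the other 4 libraries. Vessel and meningeal markers also differed in mean between the ages. Of 12 pericyte and meningeal fibroblast markers, 11 had lower means in aged rats (median log2 fold change -0.73). For 7 every aged library lay below every adult one, against 4.43% of all genes. By edgeR 8 were lower at an unadjusted p under 0.05, against 2.27% of all genes. All 9 endothelium markers had lower means (median -0.41), 1 of them at that p. After adjustment edgeR called 0 in both lists, as among all genes. DESeq2 called the fibroblast markers Col1a2 (adjusted p = 0.00147) and Igf2 (0.00287). The part of vessel and meningeal cells in the values of Axl and Spp1, which vessel cells and macrophages of the meninges can also express, was not tested.

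In these aged rats Trem2 RNA stood above every adult library, while its adaptor Tyrobp and the other markers of activation overlapped between the ages. None of the differences passed the threshold. Of the 7 genes with enough counts to be tested, 0 were called by edgeR's quasi-likelihood test at an adjusted p under 0.05 (Benjamini-Hochberg over all genes), a threshold that 0.0% of all genes passed. DESeq2 also called 0 of the 7, against 0.213% of all genes. At an unadjusted p under 0.05 by edgeR there was 1 of the 7, Trem2, against 3.45% of all genes. The 3 remaining genes, Cst7, Itgax and Clec7a, were too low to test. Mean levels were higher in aged rats for 6 of the 7 tested genes, Spp1 being the exception, with a median log2 fold change of 0.18. Among all genes 49.5% had a log2 fold change above 0, and the median was -0.00. The 7 genes are those that passed a filter on low counts, and they share libraries and in part cells, so their number gives no separate support.

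The abundance of the genes per transcript length, in FPKM (fragments per kilobase and library size), fell into 4 tiers. Tyrobp averaged 25.6 FPKM over the 6 libraries, Lpl 21.9, Trem2 11.3, Axl 7.94 and Gpnmb 6.47. These neighbours were not separated, since the range of each over the libraries overlapped that of the next. Spp1 averaged 2.29 FPKM and Cd68 2.08 FPKM, with overlapping ranges, and the highest Spp1 value (4.23) lay under the lowest Gpnmb value (5.15). Clec7a and Itgax averaged 0.108 and 0.107 FPKM, and the highest Clec7a value (0.177) lay under the lowest Cd68 value (1.42). Cst7 came last, at 0 FPKM in 4 libraries and at most 0.0216 FPKM.

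**Figure D1:**
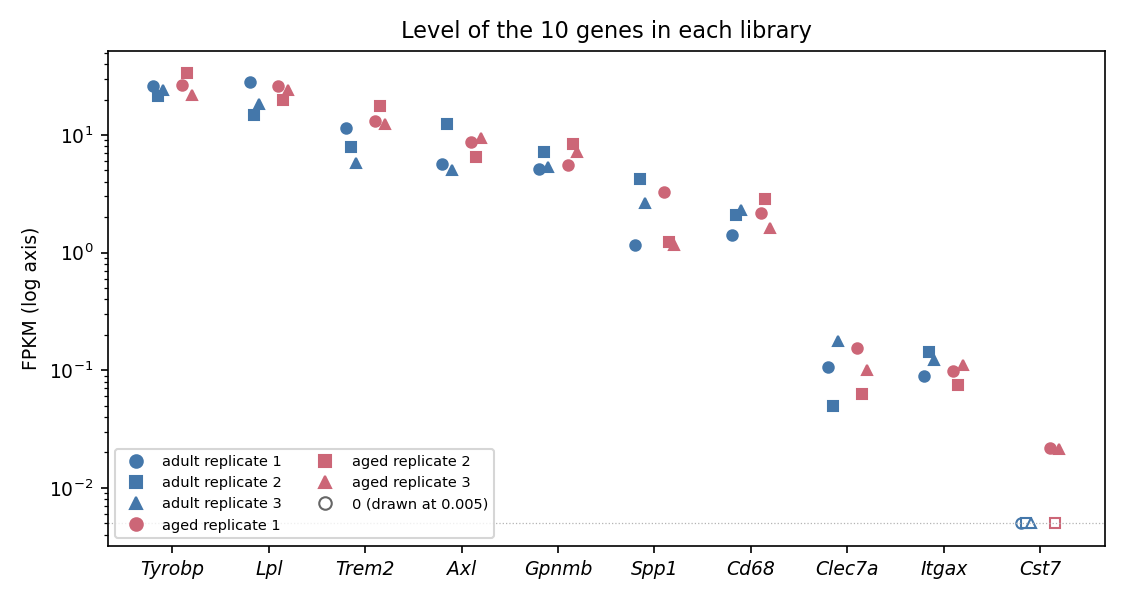
FPKM (log axis) of the 10 genes in each of the 6 libraries, blue for adult and red for aged rats, in order of mean level. Of these genes Trem2 alone has its 3 aged points above its 3 adult points, and Cst7 is at 0 (open symbols) in 4 libraries.

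Trem2, the receptor, stood at 14.3, 9.80 and 7.40 CPM in adult replicates 1 to 3 and at 16.7, 21.9 and 14.8 CPM in aged replicates 1 to 3. The groups did not overlap, but the gap between the highest adult and the lowest aged library was small. Counting intervals of these libraries overlapped: adult replicate 1 had 209 Trem2 counts, a share of 14.3 CPM of its total (95% Clopper-Pearson interval 12.4 to 16.4), and aged replicate 3 had 237 counts, a share of 15.4 CPM (13.5 to 17.5). Such intervals cover counting error only, since reads are not independent molecules. The lowest adult library lay further off, at 7.19 CPM of its total (5.92 to 8.66), an interval that did not meet that of adult replicate 1.

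The Trem2 mean was 10.5 ± 3.49 CPM in the adult rats and 17.8 ± 3.68 CPM in the aged rats (SD, n = 3). This is a log2 fold change of 0.76 ± 0.27 (SE), a 1.70-fold difference with a 95% interval of 1.10 to 2.61. The edgeR quasi-likelihood p was 0.0221 before and 1.00 after Benjamini-Hochberg adjustment, so the difference did not pass the threshold. Trem2 was also the only tested gene of the 7 whose groups did not overlap. At an unadjusted p under 0.05, 1.18% of all genes stood higher in aged rats. Further, 3.13% of all genes had every aged library above every adult library, and 4.43% the reverse. Trem2 ranked 237 of 14588 by p. An exact two-sided permutation test of its log2 CPM gave p = 0.1, the smallest that 3 rats against 3 can give.

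The direction of the Trem2 difference was the same under all 17 other settings, but its size moved with single libraries. The log2 fold change was 1.06 (edgeR unadjusted p = 0.00371) without adult replicate 1, the library highest in choroid plexus markers. The unadjusted edgeR p was 0.0581 or 0.0622 without adult replicate 2 or 3 and 0.0792 without aged replicate 2. The log2 fold changes were 0.72, 0.57 and 0.59 in turn. Without aged replicate 1 or 3 that p was 0.0379 or 0.025, with log2 fold changes of 0.82 and 0.88. The smallest adjusted p of Trem2 over the 17 settings was 0.818, by DESeq2. Within the pair of libraries low in liver genes, Trem2 stood at 14.3 CPM in the adult and 16.7 CPM in the aged rat. Within the other 4 it stood at 7.40 and 9.80 CPM in adult and at 14.8 and 21.9 CPM in aged rats. Since the ages do not overlap, any such split shows the same order, and the low pair holds 1 rat of each age.

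**Figure D2:**
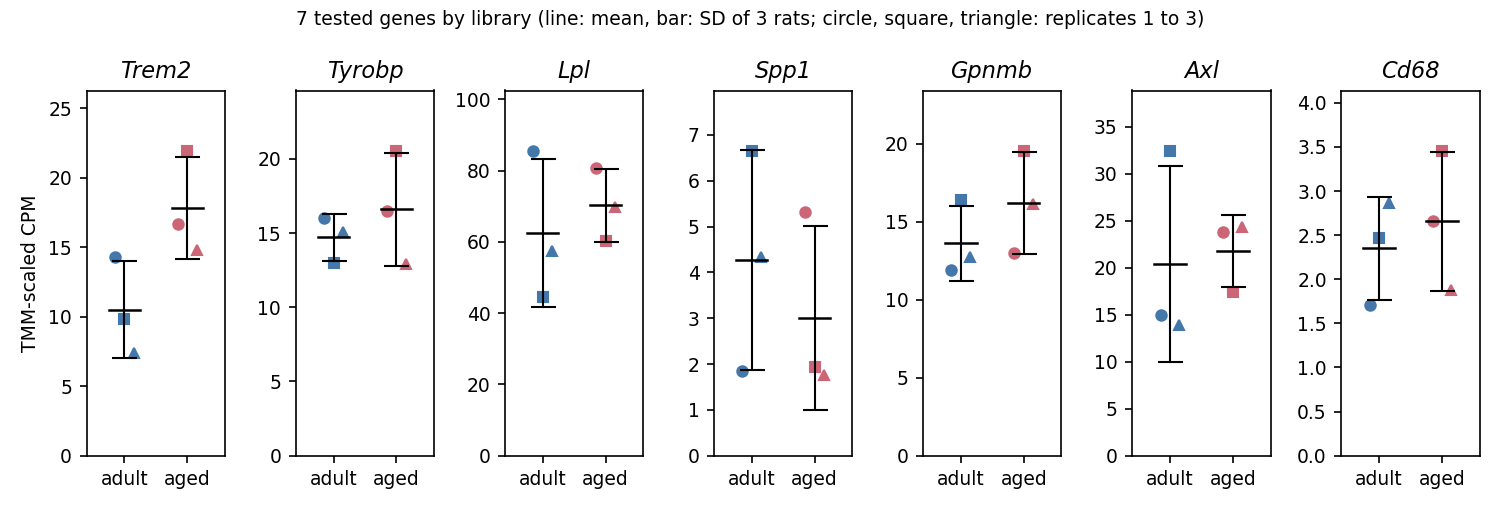
TMM-scaled CPM of the 7 tested genes in the 3 adult (blue) and 3 aged (red) libraries, each panel with its own axis from 0, with the mean (line) and SD (bar). The 3 aged Trem2 points, 14.8 to 21.9 CPM, lie above the 3 adult points, 7.40 to 14.3 CPM, and the groups overlap for the other 6 genes.

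Tyrobp, the ITAM adaptor that Trem2 needs to reach the cell surface and signal, stood at 16.0, 13 and 15.1 CPM in adult and at 16.5, 20.5 and 12.9 CPM in aged replicates 1 to 3. Aged replicate 2 was the highest and aged replicate 3 the lowest of all 6 libraries, so the aged range enclosed the adult range. Its means were 14.7 ± 1.58 and 16.6 ± 3.80 CPM, a log2 fold change of 0.18 ± 0.21 (edgeR adjusted p = 1.00). The 95% interval of the fold difference ran from 0.815 to 1.57.

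Receptor and adaptor were therefore set against each other within each library, a ratio chosen after their values were seen and given with no test. Trem2 had 0.889, 0.756 and 0.491 counts per Tyrobp count in adult replicates 1 to 3. In aged replicates 1 to 3 the ratio was 1.01, 1.07 and 1.15. It averaged 0.712 ± 0.203 in adult and 1.08 ± 0.0695 in aged rats, with no overlap. Per transcript length Tyrobp was the more abundant in 6 of 6 libraries, with 0.240 to 0.434 Trem2 FPKM per Tyrobp FPKM in adult and 0.494 to 0.562 in aged rats.

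Bulk tissue cannot tell apart more microglia from more RNA per microglial cell, so each gene was also set against 20 microglia markers in the same library. The mean log2 CPM of those markers was 4.62, 4.67 and 4.26 in adult and 4.58, 4.99 and 4.42 in aged replicates 1 to 3, and the ages overlapped. Of the 20 markers 16 had higher and 4 lower means in aged rats, 0 were called by edgeR, and their median log2 fold change was 0.21. At an unadjusted p under 0.05 by edgeR 2 were higher, Ctss and P2ry12, and 0 lower, against 1.18% and 2.27% of all genes. Ctss alone of the 20 had every aged library above every adult one, as Trem2 did. It ranked 230 of 14588 genes by p, against 237 for Trem2, so these traits were not particular to Trem2. The largest marker difference, 0.55 for the purinergic receptor gene P2ry12, was smaller than that of Trem2.

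Relative to the marker mean, Trem2 lay at -0.77, -1.35 and -1.35 log2 units in adult and at -0.51, -0.53 and -0.52 log2 units in aged replicates 1 to 3. The 3 aged libraries thus nearly coincided, at -0.52 ± 0.01, and lay above every adult library, whose mean was -1.16 ± 0.34, a difference of 0.64 log2 units. Tyrobp on the same scale averaged -0.63 ± 0.31 in adult and -0.62 ± 0.10 in aged rats. The differences for Cd68, Axl, Lpl and Gpnmb were 0.01, 0.04, 0.06 and 0.09 log2 units, all with overlapping groups. Spp1 differed by as much as Trem2 in the other direction, with a mean of -2.55 ± 0.95 in adult and -3.20 ± 0.95 in aged rats, a difference of -0.65, but its groups overlapped. Cd68, Axl, Lpl, Gpnmb and Tyrobp thus kept close to the same mean ratio to the microglia markers at both ages. Libraries of one age differed by more than that. Over the 6 libraries Axl and Lpl did not closely follow those markers (Pearson r = 0.14 and -0.08), and other cells also make them. Their ratios therefore need not describe microglia.

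**Figure D3:**
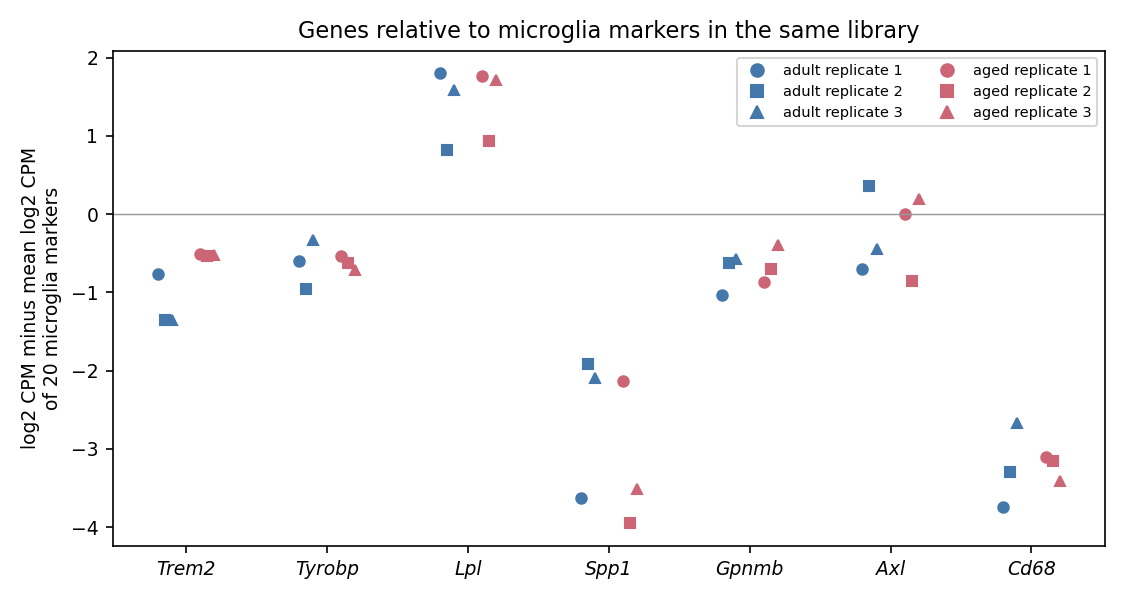
Log2 CPM of each tested gene minus the mean log2 CPM of 20 microglia markers in the same library, blue for adult and red for aged rats. The aged Trem2 points lie near -0.52, above the adult points at -0.77 and -1.35, and the ages overlap for the other 6 genes. The closeness of the aged Trem2 points is finer than counting error.

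Among the surface receptors of the activated state, Clec7a (Dectin-1, a receptor for beta-glucans that signals through Syk) had 4, 2 and 7 counts in adult and 6, 2 and 4 counts in aged replicates 1 to 3. Itgax, the CD11c integrin chain of dendritic cells and activated microglia, had 7, 12 and 10 counts in adult and 8, 5 and 9 counts in aged replicates 1 to 3. Both genes thus had counts in every library, at under 1 CPM, with no separation by age. In replicate 2 of both ages Clec7a, at 2 counts, was under a limit of 3 counts. A difference of moderate size would not be detectable at this depth. The 95% intervals of Clec7a already ran from 0.182 to 0.935 CPM of the library total in adult replicate 3 and from 0.144 to 0.852 CPM in aged replicate 1. Itgax adjoins its paralogue Itgam in the GRCr8 annotation, and Clec7a overlaps LOC120102409 there, so their few counts may include reads of those neighbours. Cd68 adjoins Mpdu1 and Eif4a1, and Axl adjoins Hnrnpul1 and LOC120096893, so the same may hold for these genes.

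Axl, a TAM receptor tyrosine kinase that binds apoptotic cells through Gas6 and Pros1, stood at 15.0, 32.4 and 13.9 CPM in adult and at 23.8, 17.4 and 24.3 CPM in aged replicates 1 to 3. Adult replicate 2 alone had the highest value, more than any aged rat. The means were 20.4 ± 10.4 and 21.8 ± 3.86 CPM, a log2 fold change of 0.09 ± 0.33 (edgeR adjusted p = 1.00). Without adult replicate 2 the log2 fold change was 0.60 (edgeR adjusted p = 0.923), and without adult replicate 1 or 3 it was -0.08 or -0.11. Its relative Mertk, the TAM receptor of resting microglia and astrocytes, was also highest in adult replicate 2, at 23.1 CPM against 6.33 to 20.4 CPM elsewhere.

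Lpl, the lipoprotein lipase that frees fatty acids from lipoproteins, had the most counts of the 10 genes. It stood at 85.4, 44.6 and 57.5 CPM in adult and at 80.8, 60.3 and 69.8 CPM in aged replicates 1 to 3, so the highest and the lowest library were both adult. The means were 62.5 ± 20.8 and 70.3 ± 10.2 CPM, a log2 fold change of 0.17 ± 0.23 (edgeR adjusted p = 1.00). It moved with single libraries, to 0.47 without adult replicate 1 and to -0.02 without adult replicate 2. Over the 6 libraries Lpl did not follow the microglia markers (Pearson r = -0.08), against 0.74 for Trem2, 0.65 for Tyrobp and 0.64 for Gpnmb. With the 3 blood leukocyte markers that passed the filter, r was higher for Trem2 (0.86) and Tyrobp (0.81), so their pattern was not particular to the microglia markers. Those 3 leukocyte markers had only 8 to 26 counts per library. These correlations describe 6 libraries whose genes share depth and scaling and carry no test.

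Spp1, which encodes the secreted glycoprotein osteopontin, was the most variable of the tested genes. It stood at 1.84, 6.64 and 4.33 CPM in adult and at 5.32, 1.93 and 1.75 CPM in aged replicates 1 to 3. Adult replicates 2 and 3 and aged replicate 1 were high and the other 3 libraries low, a division that cut across age. The means were 4.27 ± 2.40 and 3.00 ± 2.01 CPM, a log2 fold change of -0.51 ± 0.58 (edgeR adjusted p = 1.00), and the 95% interval of the fold difference ran from 0.281 to 1.76. The value was -1.20 without aged replicate 1, -0.86 without adult replicate 1, and -0.04 without adult replicate 2. It was -0.27 and -0.23 without aged replicates 2 and 3. Summed neuron markers were highest in the same 3 libraries, at 7886, 8045 and 9598 CPM against 7199 to 7483 CPM in the others, and their part in the Spp1 pattern was not tested.

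Gpnmb, a lysosomal and cell-surface glycoprotein of lipid-laden macrophages, stood at 11.9, 16.4 and 12.7 CPM in adult and at 13, 19.5 and 16.1 CPM in aged replicates 1 to 3. Replicate 2 was highest at both ages and the groups overlapped. The means were 13.6 ± 2.40 and 16.2 ± 3.27 CPM, a log2 fold change of 0.25 ± 0.21 (edgeR adjusted p = 1.00). Cd68, a heavily glycosylated membrane protein of macrophage lysosomes used as a marker of phagocytic activity, had between 25 and 43 counts per library. It stood at 1.71, 2.47 and 2.87 CPM in adult and at 2.66, 3.45 and 1.88 CPM in aged replicates 1 to 3. The aged libraries lay on both sides of the adult ones, with means of 2.35 ± 0.588 and 2.66 ± 0.788 CPM and a log2 fold change of 0.18 ± 0.36 (edgeR adjusted p = 1.00), which was -0.04 without aged replicate 2 and 0.38 without aged replicate 3.

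Cst7, which encodes cystatin F, an inhibitor of lysosomal cysteine proteases that is among the most strongly induced genes of the DAM state in mice, was close to undetected. It had 0 counts in 3 of 3 adult libraries and in aged replicate 2, and 1 count each in aged replicates 1 and 3. A count of 0 allows a level of up to 0.191 to 0.205 CPM of the library total in the adult libraries and 0.240 CPM in aged replicate 2, taking 3 counts as the limit. All libraries were under that limit, so no fold difference is given. Its target proteases stood higher, but at unlike levels. Ctsl averaged 133.5 ± 3.73 CPM in the adult rats and 110.3 ± 12 CPM in the aged rats. Ctsc (cathepsin C) averaged 7.91 ± 1.67 and 7.14 ± 0.674 CPM.

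The tested genes did not vary as 1 block over the libraries. Of the correlations of log2 CPM between pairs of the 7 genes, the highest was 0.62, between Trem2 and Tyrobp, and the next 0.58, between Tyrobp and Cd68. The lowest was -0.55, between Trem2 and Spp1. Among 11012 named genes averaging 5 CPM or more, those whose pattern was most like that of Trem2 were Slc41a2 (r = 0.994), Nup133 (0.986), Ctss (0.986), Fuca2 (0.985) and Pnck (0.984). Those most like Tyrobp were Wdr31 (0.992), Parp3 (0.991), Pim2 (0.990), Ddx49 (0.988) and Rrp7a (0.983). With 6 libraries and so many genes, high values are found for almost any pattern, and these are descriptions with no test. Ctss, the lysosomal protease cathepsin S of microglia, is itself 1 of the 20 microglia markers. It stood at 205.4, 168.6 and 143.2 CPM in adult and at 219.7, 292.5 and 221.5 CPM in aged replicates 1 to 3, with no overlap (log2 fold change 0.50 ± 0.18, edgeR adjusted p = 1.00).

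The rest of the Trem2 route showed no common direction. Of 6 tested ligands and regulators of Trem2, 2 had higher and 4 lower means in aged rats (median log2 fold change -0.07), and 0 reached an unadjusted p under 0.05. Apoe, a lipoprotein ligand of Trem2, averaged 5391 ± 152.7 CPM in the adult rats and 5403 ± 1102 CPM in the aged rats. Adam17, a protease that sheds Trem2 from the cell surface, stood at 25.3, 30.8 and 22.9 CPM in adult and at 23.0, 21.8 and 16.9 CPM in aged replicates 1 to 3, a log2 fold change of -0.36 ± 0.18 with overlapping groups (edgeR adjusted p = 1.00). Apob, the ligand with the next smallest p, stood at 1.23 and 0.799 CPM in replicate 1 of both ages. It stood at 4.44 to 16.8 CPM in the 4 libraries higher in liver genes, so it moved with those transcripts.

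Of the other receptors and adaptors that work with or beside Tyrobp, only Clec5a had enough counts to be tested among the 8 found in the table. Clec5a, a myeloid lectin that also signals through Tyrobp, stood at 0.546, 0.569 and 0.400 CPM in adult and at 1.53, 1.12 and 0.751 CPM in aged replicates 1 to 3. Its groups did not overlap, with a log2 fold change of 1.15 ± 0.47 (edgeR adjusted p = 1.00) and at most 23 counts in a library. Hcst, the sister adaptor DAP10, which adjoins Tyrobp in the genome, had 5, 4 and 9 counts in adult and 0, 2 and 0 counts in aged replicates 1 to 3, too few to test. Siglech and Cd300lb were listed at 0 in all 6 libraries.

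All 24 kinases, phosphatases and adaptors downstream of ITAM receptors passed the filter. Of these, 15 had higher and 9 lower means in aged rats, 0 had an unadjusted p under 0.05, and the median log2 fold change was 0.08. The smallest p belonged to Vav1, an exchange factor of haematopoietic cells, at 1.66 ± 0.524 CPM in the adult rats and 2.63 ± 0.436 CPM in the aged rats. Card9, the adaptor through which Syk-coupled receptors reach NF-kB, followed at 3.41 ± 0.411 and 4.98 ± 1.39 CPM, with no overlap between the groups. Syk itself averaged 9.02 ± 1.78 and 7.10 ± 1.01 CPM, a log2 fold change of -0.34 ± 0.23 (edgeR adjusted p = 1.00).

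Further genes of the DAM programme had means on both sides of no difference. Of 24 tested, 15 had higher and 9 lower means in aged rats, the median log2 fold change was 0.02, and 0 were called by edgeR. At an unadjusted p under 0.05 there was 1 higher gene, Cd83, and there were 3 lower genes, Cd9, Igf1 and Ctsl, against 1.18% higher and 2.27% lower among all genes. The tetraspanin gene Cd9 averaged 106.2 ± 26.9 CPM in the adult rats and 61.7 ± 5.42 CPM in the aged rats, a log2 fold change of -0.78 ± 0.18 (edgeR adjusted p = 1.00). Cd9 is also a gene of oligodendrocytes, and all 10 markers of those cells had lower means in aged rats (median log2 fold change -0.74), a shift whose part in the Cd9 value was not tested.

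Cd83, a surface protein of activated antigen-presenting cells, stood at 20.8, 21.3 and 17.4 CPM in adult and at 29.6, 30.4 and 23.8 CPM in aged replicates 1 to 3, with no overlap (log2 fold change 0.49 ± 0.16, edgeR adjusted p = 1.00). Igf1, a growth factor made by microglia and some neurons and raised in DAM cells of mice, averaged 13.5 ± 0.998 and 9.42 ± 1.94 CPM. Several further markers of that state, Cd52, Ccl3, Ccl4, Lilrb4, Cybb and Atp6v0d2, had at most 11 counts in any library and were not tested.

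Partners of the 10 genes gave a similar picture, with 10 of 22 tested genes higher and 12 lower in aged rats (median log2 fold change -0.09) and 0 called by edgeR. Tfeb, a transcription factor of lysosomal genes, averaged 15.8 ± 1.85 CPM in the adult rats and 11.4 ± 1.00 CPM in the aged rats, with no overlap (log2 fold change -0.47 ± 0.17, edgeR adjusted p = 1.00). Itgb1, an integrin chain of osteopontin receptors, averaged 81.8 ± 15.2 and 62.0 ± 5.01 CPM. The integrin partner of Itgax, Itgb2, averaged 11.4 ± 1.68 and 13.6 ± 2.88 CPM, and the TAM ligand gene Gas6 averaged 170.5 ± 19.3 and 174.5 ± 23.5 CPM, both with overlapping groups. Itgb2, Gas6 and, above, Ctsc were picked as direct partners of the genes described, outside the rule for naming genes.

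**Figure D4:**
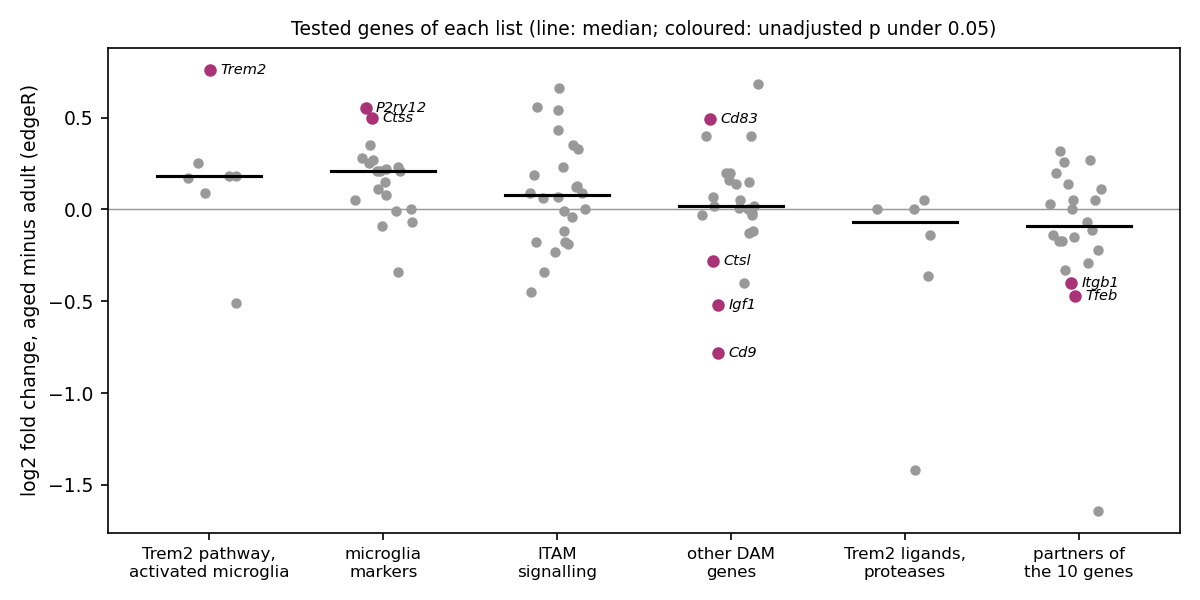
Log2 fold changes (aged minus adult, edgeR) of every tested gene in 6 lists, with the median of each list as a line and genes at an unadjusted p under 0.05 coloured and named. Trem2 at 0.76 lies above all 20 microglia markers, whose highest value is 0.55, and the list medians lie between -0.09 and 0.21.

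**Figure D5:**
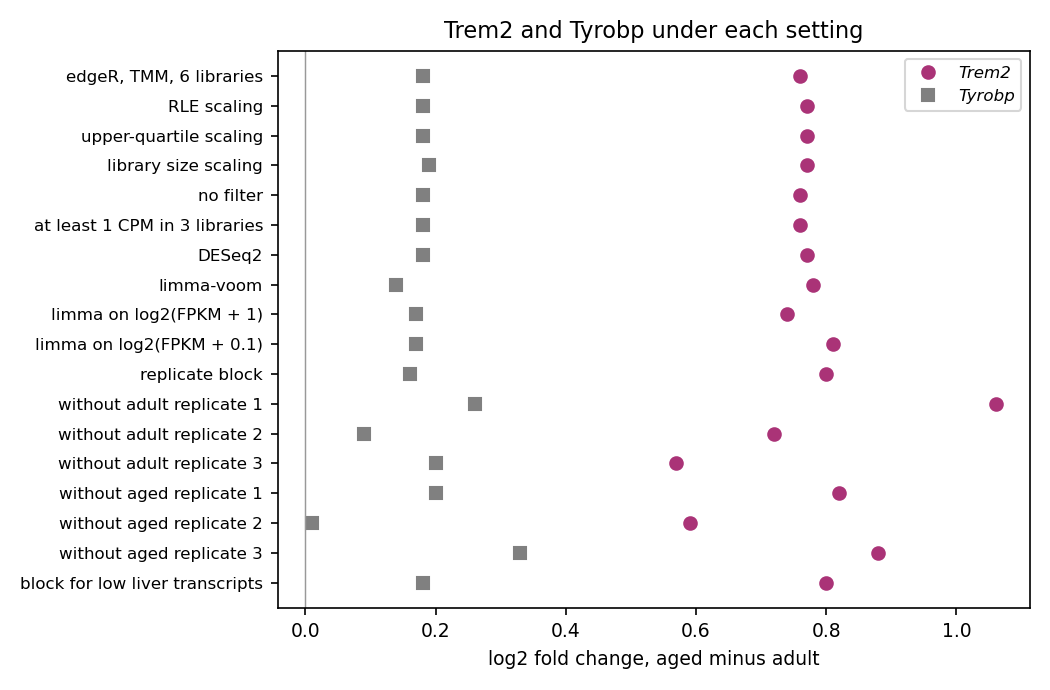
Log2 fold change of Trem2 (circles) and Tyrobp (squares) under each of 18 settings, from other scalings, filters and tools to leaving out each library. Trem2 runs from 0.57 to 1.06 and Tyrobp from 0.01 to 0.33.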

How the data were processed

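The authors deposited raw counts per gene symbol for 6 libraries, and FPKM values, which were found to be those counts over 1 length per gene and the total of each library. Reads were mapped to Rnor 6.0, per the submitters' processing notes. The sources used here do not name the aligner, the counting program, its annotation or strand setting. Counts were filtered with filterByExpr, scaled by TMM and tested, aged against adult, with edgeR 4.0.16 (quasi-likelihood, R 4.3.3), two-sided, adjusted over 14588 genes. CPM are TMM-scaled unless called CPM of the library total. Values relative to the microglia markers use log2 CPM with a prior count of 2. Intervals of fold differences are 95% intervals from the same fit. Alternatives used limma 3.58.1 and DESeq2 1.42.0. The fit was also run on simulated counts, and no result given here rests on that run. The 10 genes and all lists were chosen with earlier results of these data known. Beside the 10 genes, the text names the 2 genes of smallest p in each pathway list, and genes named for low counts, as direct partners, or for an unadjusted p under 0.05 were chosen after their values were seen. The liver genes were also chosen after the data were seen. Neighbouring genes come from RefSeq for GRCr8. Figures were drawn with matplotlib 3.10.9.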

Additional observations from a re-analysis of the deposited data

How the results depend on the processing

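Of the 10 genes, 0 were called under every one of the 17 alternatives. Over all genes, DESeq2 called 31 and limma on log2(FPKM + 1) called 2, and leaving out single libraries gave between 0 and 1 calls. Means were higher in aged rats for 5 to 6 of the 7 tested genes when single libraries were left out. Without a library Axl ran from -0.11 to 0.60, Lpl from -0.02 to 0.47 and Cd68 from -0.04 to 0.38 on the log2 scale. Axl was negative without adult replicate 1 (-0.08) or adult replicate 3 (-0.11), Lpl without adult replicate 2 (-0.02) and Cd68 without aged replicate 2 (-0.04); these alternatives hold fewer samples. Trem2, Tyrobp, Gpnmb and Spp1 kept their direction in all 17. With the replicate number as a block the count of genes called was 0 and the Trem2 log2 fold change 0.80. Deviations of same-numbered libraries correlated at -0.015, -0.057 and 0.087, and those of differently numbered libraries at between -0.124 and 0.118. So few pairs cannot decide whether the numbers pair the rats, and replicate 1 of both ages was low in liver genes. A block for low liver transcripts, chosen after seeing the data, gave 0.80 for Trem2 and 0 genes called. Depth limits Cst7, Clec7a and Itgax, with at most 12 counts in a library.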

Other observations

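Adult replicate 2 had the highest values of Axl (32.4 CPM) and Spp1 (6.64 CPM) of the 6 libraries. It also had the highest sums of markers of endothelium (430.9 CPM), border macrophages (29.8 CPM), astrocytes (7054 CPM) and oligodendrocyte precursors (302.3 CPM). The same library had the lowest Lpl (44.6 CPM). In aged replicate 2 Trem2 (21.9 CPM), Tyrobp (20.5 CPM), Gpnmb (19.5 CPM) and Cd68 (3.45 CPM) were all at their highest, as was the sum of the microglia markers (1079 CPM).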
